A study of Mus musculus with 4 samples.

Results

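The genes described here are the core autophagy machinery and its receptors, 42 genes chosen by name from the 55421 genes of the deposited count table. The rule that picked them uses their names and not their measured values, though the list was drawn up with earlier results of these data known. They comprise 5 genes of the initiation kinase complex, 6 of the phosphatidylinositol 3-kinase (PI3K) complex, 6 of membrane supply, 7 of the conjugation machinery, 4 ATG4 proteases, 5 genes of the LC3 family, 6 cargo receptors and the 3 MiT/TFE transcription factors. Every member was found in the table, and all 42 passed the filter on low counts together with others, which made 20232 genes tested in all.

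RNA was sequenced from primary cultures of undifferentiated spermatogonia (SSC cultures) that were made from the testes of neonatal CD1 mice, with no engineered allele named in the labels, and grown on irradiated mouse embryonic fibroblasts as feeder cells. The 2 libraries of the Veh group came from cultures in complete SSC medium, and the 2 libraries of the NRRA group from cultures given nutrient restriction, a medium diluted with a balanced salt solution, together with retinoic acid (RA). Both agents were applied at once in these libraries, so their parts cannot be told apart. One label field carries the word NRRA for every sample, and the groups were taken from the titles.

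Autophagy delivers cytoplasm and organelles to lysosomes inside double-membraned vesicles. The ULK kinase complex responds to nutrient supply, a PI3K complex then marks the forming membrane, ATG9 and ATG2 proteins bring in membrane, and a pair of ubiquitin-like conjugation reactions attaches the small proteins of the LC3 family to it, where receptors dock their cargo. Much of this machinery is controlled after translation, through phosphorylation, lipid attachment and turnover, so transcript levels are 1 layer of it, and TFEB, TFE3 and MITF are transcription factors known to act on autophagy and lysosomal genes. Spermatogonia and fibroblasts both express the pathway.

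The sequencing depth ranged from 28022265 to 31604769 counts per library, and a count of 3, used as the floor, corresponded to 0.0921 to 0.111 CPM (counts scaled to the library size). Stra8, a gene induced by RA, was at 9.62 and 10.1 CPM in the Veh libraries and at 1864 and 1853 CPM in the NRRA libraries, so the group labels and this gene went the same way. Of 12 germ cell markers, 3 were higher and 8 lower in NRRA, and their summed level was 3086 and 3160 CPM in Veh against 2399 and 2401 CPM in NRRA. Zbtb16, Ret, Gfra1 and Id4, genes of undifferentiated spermatogonia, fell by 1.38 to 3.32 on the log2 scale. Zbtb16 went from a mean of 442 CPM in Veh to 81.7 CPM in NRRA, and Ret from 452 to 64.1 CPM. Gfra1 went from 153 to 58.7 CPM and Id4 from 37.7 to 3.78 CPM. Lin28a, Mael, Tdrd1 and Dnd1 were also lower, with smaller falls on the log2 scale. Sall4 (mean 181 against 323 CPM), Dazl (662 against 738 CPM) and Uchl1 (307 against 333 CPM) were higher, and Ddx4, at 270.3 against 274.6 CPM, was not called. Of 22 fibroblast markers, 2 were higher and 18 lower, and their summed level was 11238 and 11122 CPM in Veh against 8665 and 8473 CPM in NRRA. Col3a1 (mean 244 CPM in Veh against 373 CPM in NRRA) and Pdgfra (21.6 against 42.6 CPM) were higher, and Postn and Loxl1 were not called. Fn1, the largest part of the sum, went from 6115 to 4357 CPM. No marker of either list was at 0. Markers of Sertoli cells, Leydig cells, macrophages and spermatids were low, with summed levels of 16.2 to 37.9, 7.52 to 9.58, 26.9 to 35.4 and 0.86 to 1.95 CPM across the 4 libraries. The number of feeder cells and the level of these genes per feeder cell cannot be told apart in bulk libraries. The part of the feeder cells in the differences below was not tested. The study describes its sequencing replicates as independent biological ones, while the labels of these samples do not say whether the libraries of a group came from separate cultures, so the p-values measure the spread between these libraries.

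Of the 42 members, 29 differed between NRRA and Veh at an adjusted p under 0.05 in edgeR's quasi-likelihood test, beside 56.4% of all genes tested. Higher levels in NRRA were called for 16 members, beside 27.9% of all genes, and lower levels for 13, beside 28.4% of all genes. At a difference of at least 1.5-fold, 4 members were higher, Ulk2, Atg9a, Atg4d and Bnip3, beside 11.8% of all genes, and 2 were lower, Optn and Tfeb, beside 12.0% of all genes. The members' log2 fold changes had a median SE of 0.047, against 0.10 for all genes. Among the 11326 genes whose mean log2 CPM was 3 or more, the called share was 71.4%, against 73.0% of the 37 members at such levels. The members' share of calls was thus close to that of genes of similar level.

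The median log2 fold change over the 42 members was 0.038, and over all genes tested it was 0.00029. Without NRRA replicate 2 the members' median was 0.073, and with library size only it was 0.13. The median size of the difference without its sign was 0.26 for the members and 0.33 for all genes. Most members therefore moved by small amounts, in both directions. The split between directions depended on the scaling. With library size only, in place of the TMM scaling used throughout, the members split into 22 higher and 11 lower, beside 6962 higher and 4593 lower of all genes tested, and the median over all genes rose by 0.09 on the log2 scale.

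**Figure D1:**
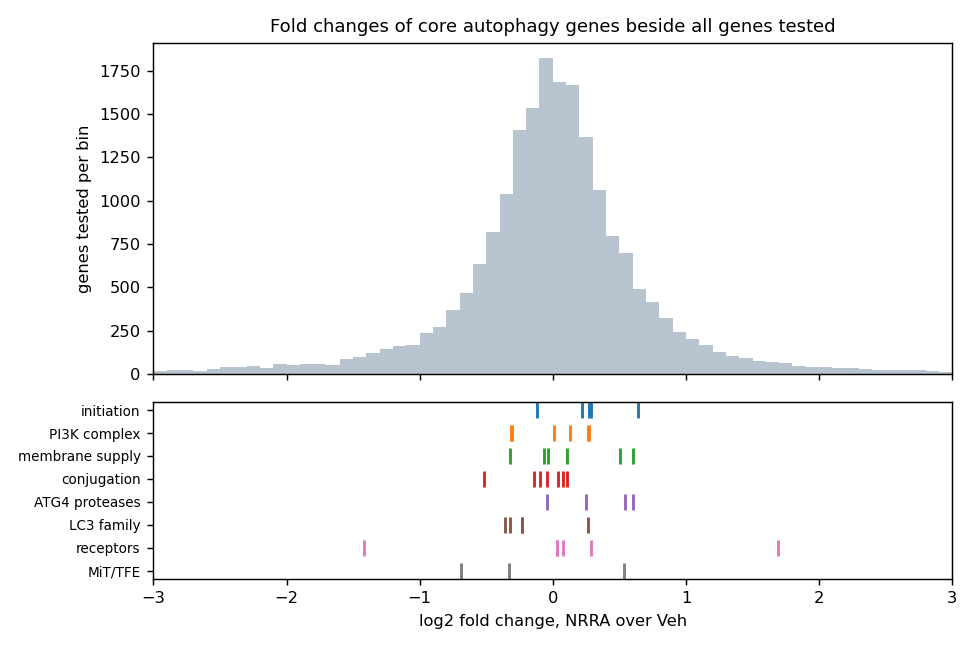
The upper histogram counts all genes tested by their log2 fold change, NRRA over Veh, and each tick below is 1 of the 42 autophagy genes, in a lane for its role. The ticks lie on both sides of 0, and only Bnip3 at 1.69 and Optn at -1.42 lie beyond 1 in either direction (301 genes fall outside the plotted range).

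In the initiation complex, 4 of 5 genes rose and the fifth did not pass the test, beside 27.9% of all genes called higher and 34.4% of those of similar level, with a median log2 fold change of 0.28 ± 0.031 (SD over all 4 comparisons of single libraries between the groups). Ulk2, which encodes 1 of the paired ULK protein kinases that start autophagosome formation, was at 43.7 and 42.6 CPM in Veh and at 66.5 and 67.8 CPM in NRRA. Both NRRA libraries were above both Veh libraries, with little spread in either group. The log2 fold change was 0.64 ± 0.049 (SE, n = 2 libraries per group, as for all SEs below; adjusted p = 2.07e-11), and the gene lies on chromosome 11 (GRCm38, chr11:61775649-61855073, minus strand).

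Ulk1, its better known paralog, was at 139.5 and 131.8 CPM in Veh and at 159.5 and 168.7 CPM in NRRA, a log2 fold change of 0.27 ± 0.036 (adjusted p = 3.34e-07). The groups did not overlap, but the rise was smaller than that of Ulk2. Per length of exon, Ulk1 remained the more abundant of the pair, and the share of Ulk2 in their summed CPM per kb was 25.4% and 26.0% in Veh and 31.2% and 30.4% in NRRA. Rb1cc1, which encodes the scaffold FIP200, was at 108.9 and 103.8 CPM in Veh and at 130.7 and 128.4 CPM in NRRA (log2 fold change 0.29 ± 0.037, adjusted p = 2.27e-07). Atg13, the regulatory subunit that links the kinase to FIP200, was at 65.4 and 66.7 CPM in Veh and at 77.7 and 76.3 CPM in NRRA (log2 fold change 0.22 ± 0.044, adjusted p = 0.000108). In these genes every NRRA library was above every Veh library, and groups without overlap, in either direction, were found for 76.7% of all genes tested. Atg101, which stabilizes ATG13, was at 43.5 and 44.3 CPM in Veh and at 40.2 and 40.6 CPM in NRRA, and with a log2 fold change of -0.12 ± 0.055 it did not pass the test (adjusted p = 0.0636).

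The PI3K genes were divided, with 3 of 6 higher, 2 lower and 1 without a call, beside 34.4% higher and 37.0% lower among genes of similar level (27.9% and 28.4% of all genes). The 3 higher genes are the shared core of the complex. Pik3c3, the lipid kinase VPS34 itself, was at 70.7 and 72.3 CPM in Veh and at 85.73 CPM in each NRRA library (log2 fold change 0.26 ± 0.042, adjusted p = 6.4e-06). Becn1, which encodes the regulatory subunit Beclin 1, was at 118.5 and 124.5 CPM in Veh and at 144.7 and 149.1 CPM in NRRA (log2 fold change 0.27 ± 0.036, adjusted p = 2.73e-07). Its exons overlap Cntd1 on the other strand over 43.9% of their length, and the counts of Cntd1 were 38.2% to 39.2% of those of Becn1 in every library, so the reads of the pair may not have been separated. Pik3r4, the VPS15 subunit, rose least, with a log2 fold change of 0.13 ± 0.031 (adjusted p = 0.000699).

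The lower genes of the PI3K complex were Atg14 and Ambra1. Atg14, the subunit that brings it to the site of autophagosome formation, was at 78.6 and 79.2 CPM in Veh and at 63.8 and 63.6 CPM in NRRA (log2 fold change -0.31 ± 0.043, adjusted p = 9.16e-07). Ambra1, a Beclin 1 partner that activates the complex, was at 136.9 and 135.6 CPM in Veh and at 107.8 and 111.5 CPM in NRRA (log2 fold change -0.31 ± 0.035, adjusted p = 2.46e-08). In neither gene did an NRRA library reach a Veh library. Uvrag, the subunit that takes the place of ATG14 in the endosomal form of the complex, overlapped between groups at 45.6 and 48.2 CPM in Veh and 49.2 and 45.4 CPM in NRRA (log2 fold change 0.01 ± 0.056, adjusted p = 0.873).

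Among the genes of membrane supply, 3 of 6 rose and 1 fell, beside 27.9% and 28.4% of all genes. Atg9a encodes the scramblase whose vesicles seed the autophagosome, and it was at 22.2 and 21.8 CPM in Veh and at 34.4 and 32.3 CPM in NRRA. Both NRRA libraries were far above the Veh libraries, with a log2 fold change of 0.60 ± 0.068 (adjusted p = 2.62e-08; GRCm38 chr1:75180860-75192196, minus strand). A same-strand gene model, Gm29253, covers 31.8% of its exons and had 0 counts in every library. Atg9b, the paralog, was at 3.43 and 3.50 CPM in Veh and at 5.10 and 4.72 CPM in NRRA (log2 fold change 0.50 ± 0.16, adjusted p = 0.0106), a call that was lost without NRRA replicate 1 (adjusted p = 0.069) and with DESeq2 (adjusted p = 0.133). Because both paralogs rose, the share of Atg9b in their summed CPM per kb stayed between 17.5% and 19.0% in the 4 libraries.

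The WIPI genes, whose proteins read the lipid made by the PI3K complex, went in opposite directions. Wipi1 was at 42.2 and 43.2 CPM in Veh and at 32.9 and 35.5 CPM in NRRA (log2 fold change -0.32 ± 0.059, adjusted p = 4.46e-05). Wipi2, the form that recruits ATG16L1, was at 127.6 and 129.7 CPM in Veh and at 139.0 and 138.6 CPM in NRRA (log2 fold change 0.11 ± 0.034, adjusted p = 0.00741), which missed the threshold with DESeq2 (adjusted p = 0.0502). The share of Wipi1 in their summed CPM per kb was accordingly 44.2% and 44.3% in Veh and 36.1% and 38.0% in NRRA. Atg2a and Atg2b, which encode lipid transfer proteins, had log2 fold changes of -0.03 ± 0.035 and -0.07 ± 0.033 and did not pass the test, except that Atg2b was called lower without Veh replicate 2 (adjusted p = 0.0275).

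**Figure D2:**
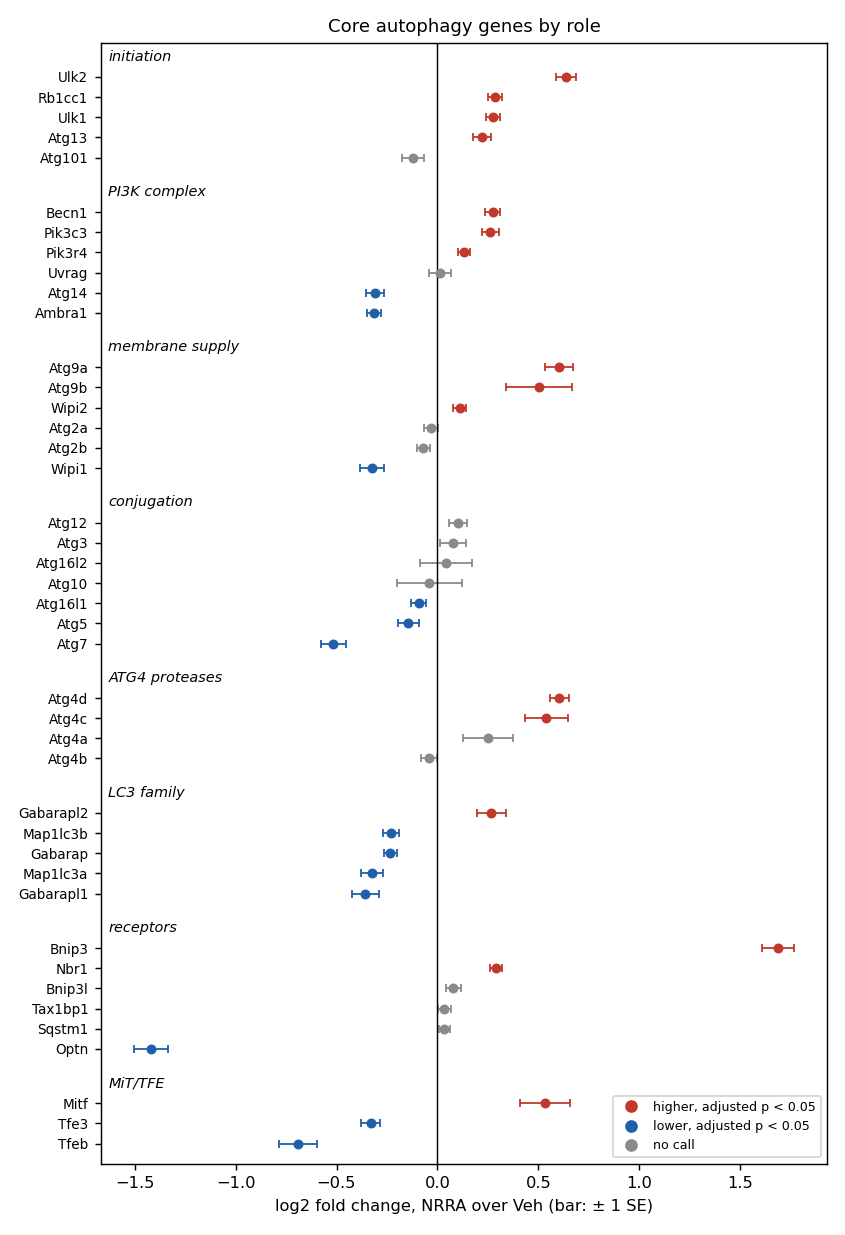
Each point is the log2 fold change, NRRA over Veh, of 1 of the 42 genes with 1 SE from edgeR's fit on 2 libraries per group, grouped by role and colored by the call at an adjusted p under 0.05. The initiation genes lie mostly to the right of 0, the LC3 family mostly to the left, and the receptors hold both the highest and the lowest value.

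None of the 7 conjugation genes rose, 3 fell and 4 did not pass the test, beside 27.9% higher and 28.4% lower of all genes. The median log2 fold change was -0.04 ± 0.055 (the same SD), no further from 0 than its spread and above 0, at 0.049, with library size only. Atg7 encodes the E1-like enzyme that activates both ATG12 and the LC3 family, and it was at 41.3 and 40.5 CPM in Veh and at 29.17 and 28.002 CPM in NRRA. The groups were well apart, with a log2 fold change of -0.52 ± 0.061 (adjusted p = 5.43e-08; GRCm38 chr6:114643097-114860614, plus strand). The fall of the E1 transcript was the clearest difference of the conjugation machinery.

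Atg5, the acceptor of ATG12, was at 52.0 and 56.0 CPM in Veh and at 50.1 and 47.5 CPM in NRRA (log2 fold change -0.14 ± 0.054, adjusted p = 0.0243). The call was lost without NRRA replicate 2 (adjusted p = 0.205), without Veh replicate 2 (adjusted p = 0.254), with library size only (adjusted p = 0.408) and with DESeq2 (adjusted p = 0.181). Atg16l1, which carries the ATG12-ATG5 conjugate to the membrane, was at 112.6 and 111.4 CPM in Veh and at 102.2 and 107.8 CPM in NRRA (log2 fold change -0.09 ± 0.038, adjusted p = 0.039). It too lost the call without NRRA replicate 1 (adjusted p = 0.449), without Veh replicate 1 (adjusted p = 0.0938), with no count filter (adjusted p = 0.0786), with library size only (adjusted p = 0.946) and with DESeq2 (adjusted p = 0.234). Neither gene therefore had a difference that held under these settings.

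The remaining conjugation genes were not called. Atg3, the E2 enzyme of the LC3 branch, had a log2 fold change of 0.08 ± 0.063 and Atg12, the ubiquitin-like protein itself, one of 0.10 ± 0.045 (adjusted p = 0.0531). With library size only both were called higher (adjusted p = 0.0266 and 0.00061), and Atg12 was also called without Veh replicate 2 (adjusted p = 0.0445) and with a replicate block (adjusted p = 0.0453). Atg10, the E2 enzyme of the ATG12 branch, and Atg16l2, a paralog of Atg16l1, were low, at 4.22 to 5.12 and 6.86 to 7.52 CPM, and the groups overlapped for both. At these depths their SEs were 0.16 and 0.13 on the log2 scale, so a difference as small as that of Atg5 could not have been told from 0.

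The ATG4 proteases trim the LC3 family proteins before conjugation and release them from lipid afterwards. Of the 4 genes, 2 rose and 2 were not called, beside 27.9% called higher of all genes. Atg4d was at 46.8 and 46.04 CPM in Veh and at 70.6 and 70.4 CPM in NRRA, 2 tight and separate pairs, with a log2 fold change of 0.60 ± 0.048 (adjusted p = 3.28e-11; GRCm38 chr9:21265293-21277772, plus strand). Kri1 overlaps 19.3% of its exons on the other strand, and its counts were 107% to 109% of those of Atg4d in Veh and 75.6% to 75.9% in NRRA, so the rise of Atg4d was not shared in proportion by Kri1. Atg4c was at 9.55 and 8.54 CPM in Veh and at 13.7 and 12.6 CPM in NRRA (log2 fold change 0.54 ± 0.11, adjusted p = 0.000114).

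Atg4b, the member with the broadest known activity on the LC3 family, was at 83.0 and 84.6 CPM in Veh and at 80.2 and 82.6 CPM in NRRA, and its log2 fold change of -0.04 ± 0.041 did not pass the test. Its share of the summed CPM per kb of the 4 proteases was 45.5% and 47.3% in Veh and 36.5% and 37.5% in NRRA, while that of Atg4d was 29.2% and 29.3% against 36.6% and 36.4%. In NRRA the pair was thus nearly level per length, whereas Atg4b was ahead in Veh. Atg4a was low, at 6.72 to 7.30 CPM in Veh and 8.17 to 8.50 CPM in NRRA, with a log2 fold change of 0.25 ± 0.12 (adjusted p = 0.0894) that was called only with library size only (adjusted p = 0.0212). A pseudogene nearly identical to 96.1% of its longest transcript, Atg4a-ps, held 1 to 6 counts per library, so the value of Atg4a is uncertain.

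In the LC3 family 4 of 5 genes fell and 1 rose, beside 28.4% of all genes called lower and 37.0% of those of similar level. The median log2 fold change was -0.23 ± 0.036 (the same SD), and -0.14 with library size only. Gabarap, the most abundant member per length, was at 163.2 and 171.9 CPM in Veh and at 142.4 and 142.7 CPM in NRRA (log2 fold change -0.23 ± 0.034, adjusted p = 1.38e-06). Map1lc3b, whose product LC3B is the usual marker protein of autophagosomes, was at 114.4 and 114.2 CPM in Veh and at 99.8 and 95.1 CPM in NRRA (log2 fold change -0.23 ± 0.038, adjusted p = 1.03e-05). Gabarap fell by 14.9% and Map1lc3b by 14.7%, and no NRRA library reached a Veh library. Map1lc3a was at 53.5 and 54.0 CPM in Veh and at 41.9 and 43.9 CPM in NRRA (log2 fold change -0.32 ± 0.053, adjusted p = 7.87e-06).

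Gabarapl1 had more spread, at 43.7 and 50.5 CPM in Veh and 38.8 and 34.7 CPM in NRRA (log2 fold change -0.36 ± 0.067, adjusted p = 4.96e-05), and 28.3% of its exons overlap 1700101I11Rik on the other strand. Gabarapl2, which encodes GATE-16, went the other way, at 24.1 and 27.6 CPM in Veh and at 31.0 and 31.3 CPM in NRRA (log2 fold change 0.27 ± 0.071, adjusted p = 0.00218). Without Veh replicate 1 the rise fell short of the threshold, at 0.18 on the log2 scale (adjusted p = 0.0556). The value carries the further limit that 20.9% of its longest transcript is nearly identical to Gm6051, which held 5 to 14 counts per library, as 11.5% of Map1lc3b is to Gm6054 at 16 to 19 counts.

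The fall of 4 LC3 family members went together with a lower summed level of the fibroblast markers, given above. The germ cell sum was lower too, but it holds Zbtb16, Ret, Gfra1 and Id4, which fell most in that list. Of the rest, Lin28a, Mael, Tdrd1 and Dnd1 were also lower, Sall4, Dazl and Uchl1 higher and Ddx4 not called. The part of either cell type in the fall of the LC3 family members was not tested.

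The 6 receptors held the members with the largest differences in both directions, yet their median log2 fold change was 0.06, or 0.15 with library size only. Of the 6, 2 rose and 1 fell, beside 34.4% higher and 37.0% lower among genes of similar level (27.9% and 28.4% of all genes). Bnip3, a mitochondrial outer membrane receptor for mitophagy and a known target of hypoxia signaling, was at 10.1 and 10.7 CPM in Veh and at 33.1 and 34.2 CPM in NRRA (275 and 318 counts against 1077 and 1029). The NRRA libraries were well above the Veh libraries, 3.22-fold by the fit, and each pair was tight. The log2 fold change was 1.69 ± 0.079 (adjusted p = 7.77e-16), above that of 97.3% of all genes tested (GRCm38 chr7:138890836-138909519, minus strand). It is uncertain in 2 respects, since 94.2% of its longest transcript has a near-identical copy in AC160336.1, which held 16 to 32 counts, and 22.3% of its exons overlap Gm45507 on the other strand. The counts of Gm45507 were 148 and 156 in Veh and 535 and 503 in NRRA, 48.9% to 53.8% of those of Bnip3 in every library, so the reads of the pair may not have been separated.

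Bnip3l, which encodes the related mitophagy receptor NIX, did not share this rise. It was at 106.3 and 113.2 CPM in Veh and at 116.3 and 115.8 CPM in NRRA, a log2 fold change of 0.08 ± 0.038 (adjusted p = 0.0789). Leaving out 1 library at a time gave log2 fold changes from 0.035 to 0.12. With library size only Bnip3l was called higher, at a log2 fold change of 0.17 (adjusted p = 0.000422). The share of Bnip3 in the summed CPM per kb of the pair was 14.0% and 13.9% in Veh and 32.6% and 33.5% in NRRA, so Bnip3l remained the more abundant transcript per length. A pseudogene, Bnip3l-ps, is nearly identical to 34.7% of the longest transcript of Bnip3l and held 27 to 41 counts per library.

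Optn encodes optineurin, a ubiquitin-binding receptor known for clearing damaged mitochondria and bacteria. It was at 25.9 and 26.8 CPM in Veh and at 9.76 and 9.97 CPM in NRRA, so that both NRRA libraries were far below both Veh libraries. The log2 fold change was -1.42 ± 0.085 (adjusted p = 1.13e-13), and only 4.41% of all genes tested had a lower one (GRCm38 chr2:5020642-5064051, minus strand). Its exons have no near-identical copy and overlap another gene over only 1.95% of their length. Over the 11 alternative settings its log2 fold change, like that of Bnip3, kept its direction and its call.

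The other ubiquitin-binding receptors moved little. Nbr1, a receptor for ubiquitinated cargo and peroxisomes, was at 233.9 and 234.7 CPM in Veh and at 286.8 and 286.2 CPM in NRRA (log2 fold change 0.29 ± 0.027, adjusted p = 9.74e-10), a small rise with almost no spread. Sqstm1, the gene of p62 and the most abundant member per length, was at 391.1 and 378.6 CPM in Veh and at 395.2 and 392.9 CPM in NRRA (log2 fold change 0.03 ± 0.026, adjusted p = 0.271), and 17.3% of its exons overlap Mrnip on the other strand, whose counts were 3.17% to 5.43% of its own. Tax1bp1, a receptor that also recruits the initiation complex, was at 205.7 and 198.0 CPM in Veh and at 208.5 and 205.0 CPM in NRRA (log2 fold change 0.03 ± 0.03, adjusted p = 0.348). Both were called higher with library size only, each at a log2 fold change of 0.12. Of the summed CPM per kb of these 3 genes and Optn, Sqstm1 held 64.4% to 65.5% in the 4 libraries, whereas Optn held 3.87% and 4.11% in Veh and 1.42% and 1.46% in NRRA.

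**Figure D3:**
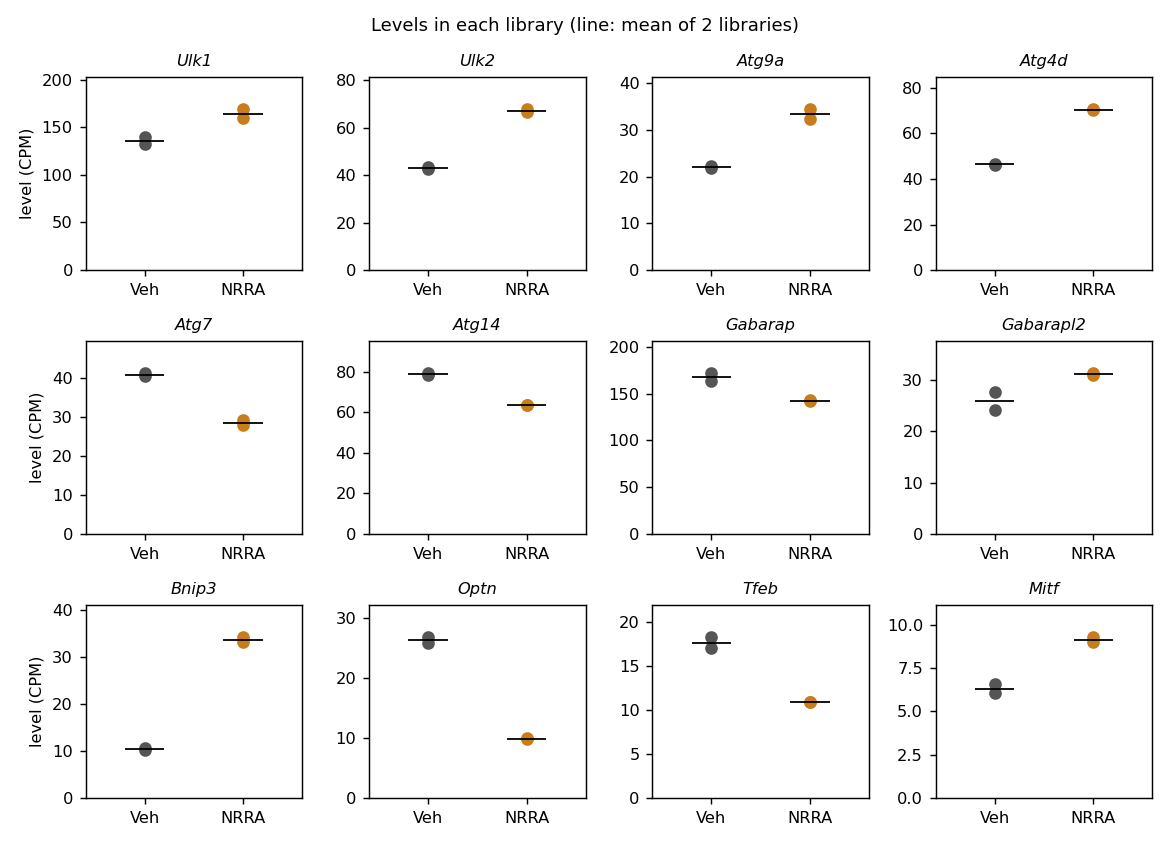
Each point is 1 library and each line the mean of the 2 libraries of a group, on a linear CPM axis from 0 that differs between genes. The Veh and NRRA libraries do not overlap in any of the 12 genes, as in 76.7% of all genes tested. The difference is largest as a fold, though not in CPM, for Bnip3, 10.1 and 10.7 against 33.1 and 34.2 CPM, and Optn, 25.9 and 26.8 against 9.76 and 9.97 CPM.

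All 3 MiT/TFE factors passed the test, as did 56.4% of all genes, and they did not go the same way. Tfeb was at 18.3 and 17.0 CPM in Veh and at 10.93 and 10.86 CPM in NRRA (log2 fold change -0.69 ± 0.094, adjusted p = 5.05e-07; GRCm38 chr17:47737030-47792419, plus strand). Tfe3, the most abundant of the factors per length, was at 68.4 and 68.8 CPM in Veh and at 54.9 and 54.2 CPM in NRRA (log2 fold change -0.33 ± 0.046, adjusted p = 8.7e-07). Mitf, best known from melanocytes, was at 6.6 and 6.05 CPM in Veh and at 8.996 and 9.30 CPM in NRRA (log2 fold change 0.53 ± 0.12, adjusted p = 0.000629; GRCm38 chr6:97807052-98021349, plus strand). In each gene the groups were separate, as in 76.7% of all genes tested.

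The summed level of the factors per length was 11.7 and 11.4 CPM per kb in Veh and 9.31 and 9.27 CPM per kb in NRRA. Tfe3 kept between 63.1% and 65.2% of it in the 4 libraries. The share of Tfeb was 27.6% and 26.3% in Veh and 20.7% in either NRRA library, and that of Mitf was 9.12% and 8.56% in Veh and 15.6% and 16.2% in NRRA. These factors are controlled largely by where in the cell their proteins are, which transcript counts do not show.

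**Figure D4:**
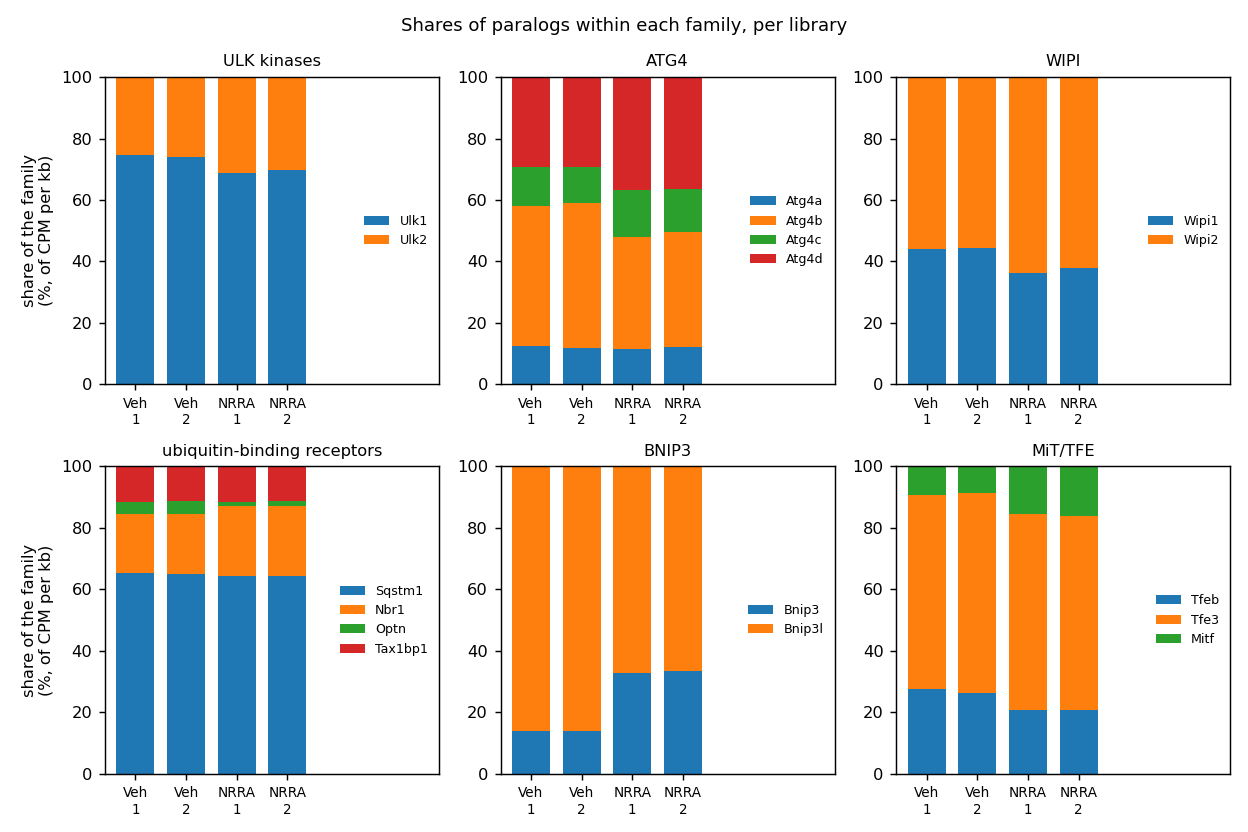
Stacked bars give, for each library, the share of each gene in the summed CPM per kb of its family, in percent from 0 to 100. In NRRA the shares of Ulk2, Atg4d, Bnip3 and Mitf are larger than in Veh, and those of Wipi1, Atg4b, Optn and Tfeb are smaller.

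MiT/TFE factors are known to bind E-boxes with the letters CACGTG, and most strongly a longer form of them. The region from 250 bases before to 50 after the start site was read from RefSeq windows (GRCm38.p6) that covered 35 of the 42 members, and searched on both strands. Some start sites lie inside the annotated gene, as those of Atg14 and Atg7 (250 bases before the start at chr6:114670846-114671095, plus strand). CACGTG was present in 5 members, Atg14, Atg3, Atg5, Atg7 and Bnip3, which is 14.3% of those with a window, beside 8.09% of all 27025 genes with windows. The extended form TCACGTGA was in 1 member, Atg3, beside 1.13% of all genes, and the CLEAR element GTCACGTGAC was in 0, beside 0.37%. The shorter ACGTG, 1 form of the core bound by hypoxia factors and contained in CACGTG, was in 17 members or 48.6%, beside 21.8% of all genes. Other forms of that core were not searched. AGGTCA, the hexamer of retinoic acid receptors, was in 8 members or 22.9%, beside 18.1% of all genes. These letter matches are a description of the windows only, and the genes compared were not matched for level or base composition. The CACGTG genes include 1 that rose, 3 that fell and 1 without a call. Atg5 is among the 3 that fell, and its call was lost under some settings.

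The 250 bases before the start are shown for the highest and the lowest member, for Ulk2 as the highest initiation gene and for Atg3 as the member with the extended E-box, each 5′ to 3′ on the gene's strand. Capitals mark ACGTG or CACGTG and AGGTCA on either strand. Bnip3 (chr7:138909507-138909756, minus strand) has 1 E-box, starting at -108, Ulk2 (chr11:61855093-61855342, minus strand) has AGGTCA at -242, Atg3 (chr16:45158579-45158828, plus strand) has E-boxes at -94 and -71, and Optn (chr2:5064118-5064367, minus strand) has none of these letters.
Bnip3: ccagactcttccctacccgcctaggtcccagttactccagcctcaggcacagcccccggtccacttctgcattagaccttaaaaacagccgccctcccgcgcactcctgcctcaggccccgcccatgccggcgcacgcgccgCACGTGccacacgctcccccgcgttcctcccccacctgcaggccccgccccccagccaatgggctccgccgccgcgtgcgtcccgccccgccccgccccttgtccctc
Optn: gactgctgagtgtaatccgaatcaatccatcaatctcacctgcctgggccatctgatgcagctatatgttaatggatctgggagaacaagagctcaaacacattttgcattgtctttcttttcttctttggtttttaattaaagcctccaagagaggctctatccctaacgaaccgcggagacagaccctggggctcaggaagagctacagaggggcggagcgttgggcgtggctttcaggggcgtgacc
Ulk2: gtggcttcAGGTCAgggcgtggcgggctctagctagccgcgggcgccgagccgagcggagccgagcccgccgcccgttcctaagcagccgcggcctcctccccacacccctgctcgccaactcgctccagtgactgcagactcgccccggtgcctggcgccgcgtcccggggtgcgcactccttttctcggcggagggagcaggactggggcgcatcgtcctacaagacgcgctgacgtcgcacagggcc
Atg3: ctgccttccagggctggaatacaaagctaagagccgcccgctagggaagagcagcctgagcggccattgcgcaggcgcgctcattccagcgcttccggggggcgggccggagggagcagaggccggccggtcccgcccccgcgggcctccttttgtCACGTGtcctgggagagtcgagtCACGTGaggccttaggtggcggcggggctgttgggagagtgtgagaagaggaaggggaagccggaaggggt

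A second set of 56 autophagy genes outside the core list gave a similar picture, with 19 higher, 16 lower and 21 without a call. The called share was 62.5%, beside 56.4% of all genes and 71.4% of genes whose mean log2 CPM was 3 or more. With library size only the split was 28 higher and 11 lower, beside 6962 and 4593 of all genes tested. Among 13 other initiation and PI3K factors, 4 rose and 4 fell, close to the 27.9% and 28.4% of all genes. Bcl2, an inhibitor that binds Beclin 1, was at 3.06 and 2.89 CPM in Veh and at 5.59 and 6.51 CPM in NRRA (log2 fold change 1.02 ± 0.16, adjusted p = 6.91e-06). Rubcnl, a factor of autophagosome maturation, was at 0.996 and 1.14 CPM in Veh and at 0.491 and 0.565 CPM in NRRA (log2 fold change -1.02 ± 0.39, adjusted p = 0.0274).

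Among 13 genes of autophagosome closure and fusion, 3 rose and 5 fell, beside 27.9% and 28.4% of all genes. Epg5, a tether between autophagosome and lysosome, was at 69.3 and 71.1 CPM in Veh and at 37.0 and 36.9 CPM in NRRA (log2 fold change -0.93 ± 0.05, adjusted p = 1.65e-14). Vps4a, an ATPase that takes the closure machinery apart, was the highest of the list at a log2 fold change of 0.54 ± 0.062 (adjusted p = 3.09e-08). Among 16 further receptors, 8 rose and 2 fell, beside 27.9% and 28.4% of all genes. Retreg1, a receptor for the endoplasmic reticulum, was the highest at 0.59 ± 0.14 (adjusted p = 0.000553). Stbd1, a receptor for glycogen, had the lowest value, at 3.54 and 3.09 CPM in Veh and at 2.82 and 2.13 CPM in NRRA, and did not pass the test (log2 fold change -0.41 ± 0.20, adjusted p = 0.0896).

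The 14 transcriptional and nutrient-sensing regulators had 4 higher and 5 lower genes, beside 27.9% and 28.4% of all genes, and held the largest difference of the 56. Rragd encodes the RagD GTPase, which acts on mTORC1 at the lysosome and is a known target of the MiT/TFE factors. It was at 146.9 and 142.0 CPM in Veh and at 34.9 and 35.1 CPM in NRRA, a log2 fold change of -2.05 ± 0.043 (adjusted p = 2.98e-23). The level fell by 75.8%, with both NRRA libraries far below the Veh libraries. Fnip1, a partner of folliculin in the regulation of the Rag GTPases, was at 38.6 and 41.0 CPM in Veh and at 73.1 and 70.0 CPM in NRRA (log2 fold change 0.85 ± 0.051, adjusted p = 1.54e-13).

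**Figure D5:**
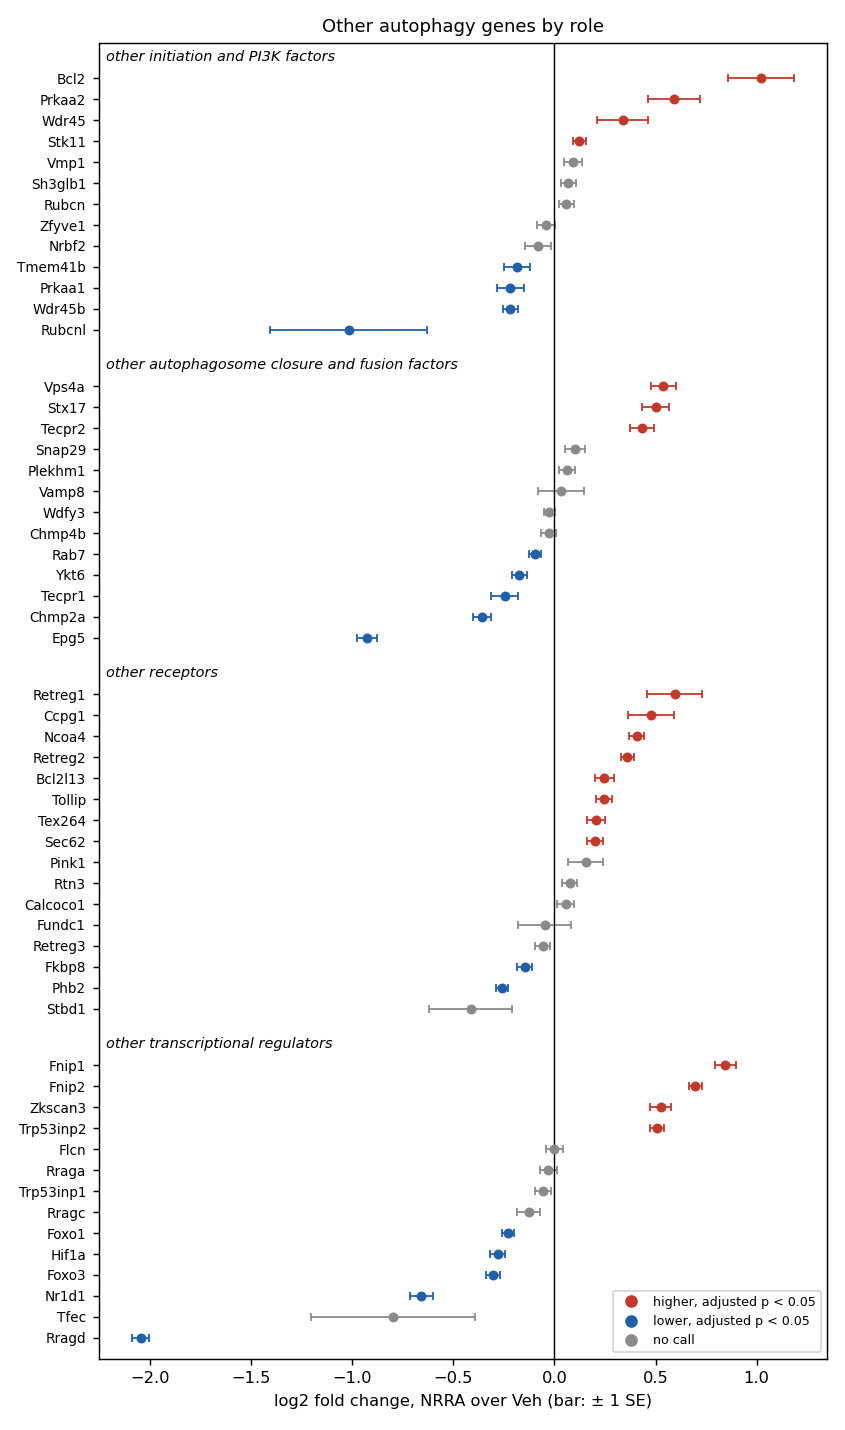
Each point is the log2 fold change, NRRA over Veh, of 1 of the 56 autophagy genes outside the core list with 1 SE, grouped by role and colored by the call at an adjusted p under 0.05. Rragd at -2.05 is the lowest, and Bcl2 at 1.02 is the highest.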

How the data were processed

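The values analysed are the raw gene counts of 4 libraries as deposited by the authors in 1 table. The submitters' processing notes name bcl2fastq, STAR 2.6.1c, featureCounts 1.6.4 and mm10, while the annotation release and the strand setting are not given in the sources used here. The labels name a TruSeq kit and the study's methods a stranded kit from Tecan, so reads of overlapping genes may be mixed. Genes were filtered with filterByExpr, scaled with TMM and tested in edgeR 4.0.16 (R 4.3.3) with the robust quasi-likelihood F test, NRRA against Veh without a block, with Benjamini-Hochberg adjustment over 20232 genes and a threshold of 0.05. SEs were derived from the F statistic. CPM used the TMM-adjusted library sizes, and CPM per kb the summed exon length in GENCODE M21, where 99.7% of the gene identifiers were found. Near-identical means at least 95% identity over at least 100 bases. Replicates differed by a common coefficient of variation of 2.61%. The script was tested on simulated counts. The alternatives were DESeq2 size factors, library size only, no filter, at least 50 summed counts, DESeq2 1.42.0, no robust estimation, a replicate block and leaving out each library. Every member is named. The 2 Veh libraries are numbered as in the titles, while their columns carry the next higher numbers. 1 other gene is not reported here. Of the 56 other genes, those called with at least a 2-fold difference and the highest and the lowest of each list are named. The members and lists were chosen with earlier results of these data known.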

Additional observations from a re-analysis of the deposited data

How the results depend on the processing

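Of 462 log2 fold changes of members under 11 alternatives, 439 led to the same call or again to none, 13 lost the call, 10 gained one and 0 called values changed direction. The changes fell on 12 members, Atg9b, Atg2b, Wipi2, Atg3, Atg5, Atg12, Atg16l1, Atg4a, Gabarapl2, Sqstm1, Tax1bp1 and Bnip3l, and in 10 of the 439 a member without a call changed its sign. With library size only, in place of TMM, the median log2 fold change moved to 0.13 over all members, 0.36 for initiation, 0.16 for the PI3K complex, 0.13 for membrane supply, 0.049 for conjugation, 0.48 for the ATG4 proteases, -0.14 for the LC3 family, 0.15 for the receptors and -0.24 for MiT/TFE, all by about the shift of 0.09 over all genes. Leaving out 1 library at a time gave medians from 0.031 to 0.073 over all members, from 0.23 to 0.32 for initiation, from -0.090 to 0.074 for conjugation, from -0.27 to -0.23 for the LC3 family and from 0.058 to 0.067 for the receptors. They ran from 0.051 to 0.092 for the PI3K complex and from 0.022 to 0.052 for membrane supply. For the ATG4 proteases they ran from 0.32 to 0.46, and for MiT/TFE from -0.34 to -0.32. The conjugation median was above 0 without NRRA replicate 2 (0.07), without Veh replicate 1 (0.074) and with library size only, and the cause was not tested. These fits leave 1 library in a group, which is assumed to vary like the other group. DESeq2 called 4252 genes higher and 4314 lower, against 5654 and 5752 in edgeR, and 25 members against 29, all 25 in the same direction. The difference between libraries 1 and 2 in Veh was not correlated with that in NRRA (correlation -0.011 over 20232 genes). With 1 such difference per group, this cannot show whether libraries of the same number were handled together. With a replicate block 17 members were higher and 13 lower, with Atg12 added. With 2 libraries per group and SEs of about 0.05, member differences under about 0.1 on the log2 scale were at the limit of what could be called.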
